A study of Homo sapiens and Mus musculus with 76 samples.

Results

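The translation factor genes described here are the human genes whose symbol begins with EIF and a digit from 1 to 6, other than the EIF2AK kinases, or with EEF1 or EEF2 and a further letter. This rule uses names alone and picked 66 of 23571 symbols. EEF2, the elongation factor that moves the ribosome along the mRNA, has no further letter and is therefore outside the rule, and its values are given beside the others where they bear on them. By function the rule also brought in genes that are not translation factors. EIF2C1 to EIF2C4 are older symbols of the 4 Argonaute genes of RNA silencing, EIF1B-AS1 is an antisense RNA, and EIF3IP1 and EEF1DP3 carry pseudogene symbols.

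Initiation begins when eIF2 brings the initiator tRNA to the small ribosomal subunit, where eIF3, eIF1, eIF1A and eIF5 gather. The cap of the mRNA is bound by eIF4E, which is joined through the scaffold eIF4G to the RNA helicase eIF4A and its helpers eIF4B and eIF4H, and the 4E-binding proteins compete with eIF4G for eIF4E. After the start codon is found, eIF5B joins the large subunit, eEF1A delivers each aminoacyl tRNA, the eEF1B complex recharges eEF1A with GTP, and eEF2 moves the ribosome on.

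The study set Smart-Seq2, a protocol that copies polyadenylated RNA to full-length cDNA by template switching and amplifies it by PCR, beside the SMART-Seq protocol. All 63 human libraries used here come from established cell lines with no treatment named. HEK293T, a line from human embryonic kidney that carries the SV40 large T antigen, gave Smart-Seq2 libraries of total RNA at 1 ng (3 libraries), 100 pg (3) and 10 pg (2), of pools of 100, 50 and 10 cells (3 each) and of single cells (7), single cells with 4 Smart-Seq2 variants whose differences the labels do not name (8, 8, 6 and 6 cells for variants 1 to 4), and single cells with SMART-Seq (4). DG-75, a human B lymphoma line, gave 7 single cells with Smart-Seq2. The labels name no culture, passage or clone behind a library or cell, so the spread that p-values measure is that from library to library and may be technical, and each single-cell group counts as 1 sample. The 13 mouse libraries were not used.

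The RNA and pool libraries held 1.88 to 5.55 M gene reads each (M, 1000000) and the single cells 2.24 to 27.9 M. Levels are reads per 1000000 gene reads of a library (CPM) unless stated otherwise. The 7 B cell markers summed to between 793 and 8068 CPM in DG-75 cells and to at most 32.8 CPM in any HEK293T library. The 8 kidney and neural markers of HEK293T summed to between 4.60 and 147 CPM in DG-75 cells and to between 248 and 3078 CPM in HEK293T libraries. In 100-cell pools, replicates 1 and 2 were much closer to each other than to replicate 3, with a mean chi-square per gene of 1.75 against 19.0 and 18.7. Replicates 1 and 2 entered the tests as separate libraries. Counts with these pools summed to 1 library are given with the other alternatives.

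The translation factor genes together held between 0.715% and 1.89% of the gene reads of a library. The mean share was 1.51 ± 0.0475% (SD, n = 3) in 100 cells, 1.53 ± 0.0415% (n = 3) in 50 cells and 1.46 ± 0.0282% (n = 3) in 10 cells. In purified RNA it was 1.40 ± 0.0567% (n = 3) at 1 ng, 1.42 ± 0.0384% (n = 3) at 100 pg and 1.34% in each of the 2 libraries at 10 pg. Pools and RNA were thus close in the summed share, and the differences described next are between genes. In single HEK293T cells the mean share was 1.15 ± 0.202% (n = 7 cells) with Smart-Seq2 and 1.82 ± 0.0919% (n = 4 cells) with SMART-Seq.

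**Figure D1:**
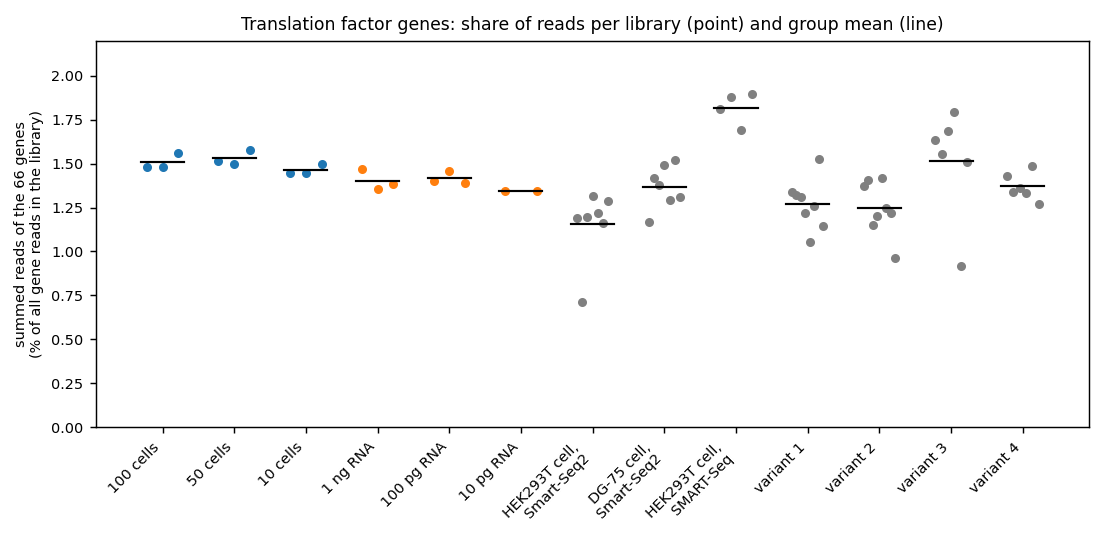
Share of each library's gene reads (%) taken by the 66 translation factor genes together, by group; each point is 1 library and each line a group mean. Pools (blue) and RNA (orange) lie between 1.34% and 1.58%, SMART-Seq cells have the highest mean at 1.82%, and 1 Smart-Seq2 cell at 0.715% and 1 variant 3 cell at 0.919% lie below the rest of their groups.

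The 4 genes EIF4A1 (the main eIF4A helicase), EIF3C, its near-identical copy EIF3CL and the readthrough EEF1E1-MUTED had 0 reads in all 63 libraries, which allows a level of up to 0.00528 CPM over 568.2 M gene reads, for counting error only. EIF4A1 shares its locus with SENP3 and with the readthrough SENP3-EIF4A1, and these reached at most 2.14 and 8.09 CPM in any library. The levels of these loci are therefore those of the authors' counting, whose rule for reads with several matches or overlapping genes is not given in the sources used here. The same limit holds for EEF1A1, which has many pseudogenes, and for the copies EIF5A and EIF5AL1, and EIF3I and EIF3IP1.

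Per length, the deposited RPKM of 1 ng of RNA placed EIF1 and EEF1G at the top of the group, with medians of 703 and 751 RPKM, beside 682 RPKM for EEF2. EIF4G2, an eIF4G relative that does not bind eIF4E, followed at 564 RPKM, EIF3I at 505 RPKM and the helicase EIF4A3 of the exon junction complex at 441 RPKM. The ranges of EIF1, from 674 to 891 RPKM, and of EEF1G, from 656 to 859 RPKM, overlapped. RPKM values imply shorter transcripts than the annotated ones for EEF1G (562 against 1523 bases) and EIF1 (1175 against 2330 bases). The places of both genes in this order thus rest on lengths that could not be checked.

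Many mRNAs of the translation machinery begin with a terminal oligopyrimidine stretch, a C followed by pyrimidines at the very start of the transcript, through which the mTOR pathway is known to control their translation. RefSeq promoter windows (GRCh38.p14, while the counts were made on hg19) matched 53 of the 66 genes. Unmatched were EEF1A2, EEF1D, EEF1DP3, EIF2C2, EIF2S2, EIF3A, EIF3CL, EIF3E, EIF3G, EIF3H, EIF3IP1, EIF3L and EIF4EBP1. These enter no comparison of genes with and without the motif, which rests on the annotated start alone. A C at the annotated start followed by 4 bases that are each C or T, searched on the strand of the gene, was found in 10 of the 53 and in 4.04% of 27305 promoters. Within 10 bases of the annotated start it was found in 23 of the 53 and in 33.3% of promoters, so the count depends on the exact start. The 10 windows are shown with EEF2, which also holds the motif, and with EIF4G1, EIF4E and EEF1B2, which do not hold it at the start. Each line has 15 bases before the start and 15 from it, and capitals mark the unbroken pyrimidines from the start.
EEF1A1 (chr6:73521018-73521047, minus strand): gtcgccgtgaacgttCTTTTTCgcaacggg
EIF2A (chr3:150546772-150546801, plus strand): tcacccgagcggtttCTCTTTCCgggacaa
EIF2D (chr1:206612451-206612480, minus strand): ggtttccagccgggcCCTTTTCgcggccgg
EIF2S3 (chrX:24054941-24054970, plus strand): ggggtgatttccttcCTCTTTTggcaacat
EIF3D (chr22:36529152-36529181, minus strand): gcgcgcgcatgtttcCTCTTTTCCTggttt
EIF3F (chr11:7987322-7987351, plus strand): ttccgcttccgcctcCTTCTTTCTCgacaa
EIF3K (chr19:38619173-38619202, plus strand): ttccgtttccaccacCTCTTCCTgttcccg
EIF3M (chr11:32583816-32583845, plus strand): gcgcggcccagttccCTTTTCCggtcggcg
EIF4A2 (chr3:186783562-186783591, plus strand): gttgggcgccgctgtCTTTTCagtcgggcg
EIF4B (chr12:53006441-53006470, plus strand): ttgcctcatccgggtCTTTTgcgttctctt
EEF2 (chr19:3985449-3985478, minus strand): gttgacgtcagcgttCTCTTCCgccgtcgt
EIF4G1 (chr3:184314591-184314620, plus strand): tctgtgcggggagccggaaatggttgtgga
EIF4E (chr4:98929119-98929148, minus strand): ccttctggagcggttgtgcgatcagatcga
EEF1B2 (chr2:206159594-206159623, plus strand): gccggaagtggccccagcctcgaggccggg

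Libraries of 100 lysed cells and of 1 ng of purified RNA from the same line differ in the source of the RNA. In cells, the eIF2 subunits, cap-binding eIF4E proteins, 4 of 5 eIF2B and 6 of 12 eIF3 subunits, eIF5B and EEF1E1 were higher. The scaffolds EIF4G1 and EIF4G2, the helicase helper EIF4H and the largest eIF3 subunit EIF3A were lower. Of the eEF1B genes EEF1B2 and EEF1G were higher and EEF1D lower. Of 56 genes tested, 32 were higher in cells and 7 lower with edgeR's quasi-likelihood test at an adjusted p under 0.05, against 29.7% higher and 33.1% lower among all 11487 genes tested. The 32 and 7 genes are 57.1% and 12.5% of those tested. In 44 of the 56 (78.6%) the libraries of cells and of RNA did not overlap, as in 66.6% of all genes. The median log2 fold change was 0.52 over the translation factor genes and -0.03 over all genes. In bulk samples a lower level from fewer cells with a transcript and from less of it per cell cannot be told apart.

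The scaffold EIF4G1, which joins the cap to the ribosome, differed most. Its level was 47.3, 49.5 and 67.7 CPM in the 3 libraries of 100 cells and 611, 910.1 and 836 CPM in those of 1 ng. All libraries of RNA lay far above all libraries of cells (log2 fold change -3.61 ± 0.20, adjusted p = 1.17e-10, edgeR). EIF4G2 was at 740.4, 805 and 820.0 CPM in cells and 2408, 1941 and 2119.8 CPM in RNA (-1.22 ± 0.15, adjusted p = 1.20e-06). EIF4H, which stimulates the eIF4A helicase, was at 47.0, 41.5 and 68.8 CPM in cells and 208, 193 and 209.8 CPM in RNA (-1.73 ± 0.20, adjusted p = 5.40e-07). The third eIF4G gene, EIF4G3, went the other way at 0.75 ± 0.19, adjusted p = 0.00186, so 1 of the 3 scaffolds was higher in cells and 2 were lower. EEF2 fell outside the rule but moved with EIF4G1, with 164, 174 and 256 CPM in cells and 1937, 2196 and 2191 CPM in RNA (-3.18 ± 0.18, adjusted p = 1.33e-10).

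All 3 eIF2 subunits were higher in 100 cells. EIF2S3, the GTP-binding gamma subunit, was at 588, 594 and 383 CPM in cells and 203, 185 and 187 CPM in RNA (1.68 ± 0.19, adjusted p = 5.00e-07). EIF2S2, the beta subunit, was at 201, 189.7 and 154 CPM and 78.4, 79.5 and 76.1 CPM (1.45 ± 0.18, adjusted p = 1.65e-06). In both genes every pool lay above every RNA library. Of the 5 subunits of eIF2B, the exchange factor that recharges eIF2, 4 were higher, with the catalytic subunit EIF2B5 at 1.66 ± 0.25, adjusted p = 1.50e-05, and EIF2B1 did not pass at 0.23 ± 0.16, adjusted p = 0.203.

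The 3 tested genes of the cap-binding family were higher in cells. EIF4E, which binds the cap, was at 109, 102 and 49.2 CPM in cells and 34.6, 39.4 and 41.7 CPM in RNA (1.41 ± 0.26, adjusted p = 1.24e-04). Replicate 3 of the pools lay well below replicates 1 and 2 and closer to RNA. EIF4E2, a cap-binding relative linked to repression of translation, gave 1.22 ± 0.18, adjusted p = 9.08e-06. EIF4E3, at under 20 CPM in every one of these libraries, gave 2.28 ± 0.38, adjusted p = 4.07e-05. EIF4EBP1, which holds eIF4E away from eIF4G, was at 325, 296 and 465 CPM in cells and 149, 167 and 138 CPM in RNA (1.48 ± 0.18, adjusted p = 1.41e-06). Its relative EIF4EBP2 did not pass at 0.28 ± 0.18, adjusted p = 0.182.

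Of the 12 tested eIF3 subunits 6 were higher in cells and EIF3A, the scaffold of the complex, was lower. EIF3A was at 199, 231 and 213 CPM in cells and 571, 524 and 567 CPM in RNA (-1.14 ± 0.16, adjusted p = 4.94e-06). EIF3E was at 709, 691 and 451 CPM and 352, 284 and 259 CPM (1.28 ± 0.20, adjusted p = 1.83e-05), with all pools above all RNA libraries. EIF3M (1.10), EIF3I (1.06), EIF3B (0.998), EIF3K (0.91) and EIF3H (0.73) were also higher, the value being the log2 fold change. Subunits of 1 complex thus stood on both sides of the comparison.

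EIF4A2, the second eIF4A helicase, was higher in cells (1.19 ± 0.19, adjusted p = 3.20e-05). Start site factors EIF1AX (0.99 ± 0.24, adjusted p = 0.00146) and EIF5 (0.68 ± 0.15, adjusted p = 6.84e-04) were higher, whereas EIF1 (-0.19 ± 0.17, adjusted p = 0.343) and its paralog EIF1B (0.23 ± 0.18, adjusted p = 0.269) did not pass. EIF5B, which joins the subunits, rose in cells relative to RNA (0.98 ± 0.18, adjusted p = 1.15e-04), as did EIF6, which keeps the large subunit free until it matures (0.83 ± 0.17, adjusted p = 3.78e-04).

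Among the elongation factors EEF1A1 was at 198, 192 and 217 CPM in cells and 189, 155 and 167 CPM in RNA (0.48 ± 0.17, adjusted p = 0.0185) and did not pass with library totals in place of TMM scaling. Its paralog EEF1A2 was at 0.611, 1.37 and 2.16 CPM in cells and 1.06, 2.44 and 1.23 CPM in RNA and was too low to be tested. In the eEF1B complex EEF1B2 (1.06 ± 0.17, adjusted p = 2.56e-05) and EEF1G (0.50 ± 0.17, adjusted p = 0.0156) were higher and EEF1D (-0.53 ± 0.19, adjusted p = 0.0197) lower. EEF1E1, listed with these genes by its symbol, belongs to the aminoacyl tRNA synthetase complex and was higher (1.99 ± 0.33, adjusted p = 4.07e-05). It stood at 228, 235 and 66.4 CPM in the 3 pools and 45.7, 58.2 and 54.0 CPM in RNA, with replicate 3 of the pools near the RNA libraries. EEF2K, the kinase that inactivates eEF2, was lower in cells (-1.26 ± 0.24, adjusted p = 1.82e-04). EIF5A, which helps the ribosome past difficult peptide bonds, did not pass at 0.15 ± 0.21, adjusted p = 0.56, and its paralog EIF5A2 was higher at 0.86 ± 0.27, adjusted p = 0.00984. The Argonaute genes gave 1 higher, EIF2C4 (1.05 ± 0.34, adjusted p = 0.0113), and 1 lower, EIF2C3 (-0.71 ± 0.25, adjusted p = 0.0181), of 4. Leaving out 1 library ended the call of EEF1A1 without replicate 2 or 3 of 1 ng (adjusted p from 0.0897 to 0.0919), of EIF2C3 without replicate 1 of 100 cells or replicate 2 of 1 ng (adjusted p from 0.0914 to 0.0987) and of EIF2C4 without replicate 1 of 100 cells or replicate 1 or 2 of 1 ng (adjusted p from 0.0544 to 0.0848).

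Transcript length and GC content moved with the fold change, and their part in it was not tested beyond the correction given here. Across genes, which are not independent replicates, the rank correlation of the log2 fold change with annotated transcript length was -0.31 over all genes and -0.28 over the 56, and with GC content -0.41 and -0.25. After a trend with length and GC was removed, 28 of the 56 were higher and 9 lower, against 3203 and 3300 of all 11487 genes. With the trend centred, a choice made after seeing the data, the split was 21 and 15 or 28 and 13. Over all genes it was 2421 and 4254 or 2971 and 3504. With the uncentred trend removed EIF4E was at -0.07 (adjusted p = 0.805, edgeR), EEF1E1 at -0.06 (adjusted p = 0.862), EEF1B2 at -0.23 (adjusted p = 0.0875) and EIF3E at -0.14 (adjusted p = 0.276), none of which passed. The annotated transcript used for EIF4E has 1097 bases, while its RPKM implies 3455, so its corrected value rests on an uncertain length. EIF4G1, EIF4G2, EIF4H, EIF3A, EIF2S2, EIF2S3, EIF2B5, EIF4E2, EIF4EBP1, EIF5 and EIF5B kept their direction and call in every alternative run. With library totals the median of all genes moved to -0.25 and the split was 26 higher and 11 lower, against 2501 and 4535 of all 11487 genes.

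**Figure D2:**
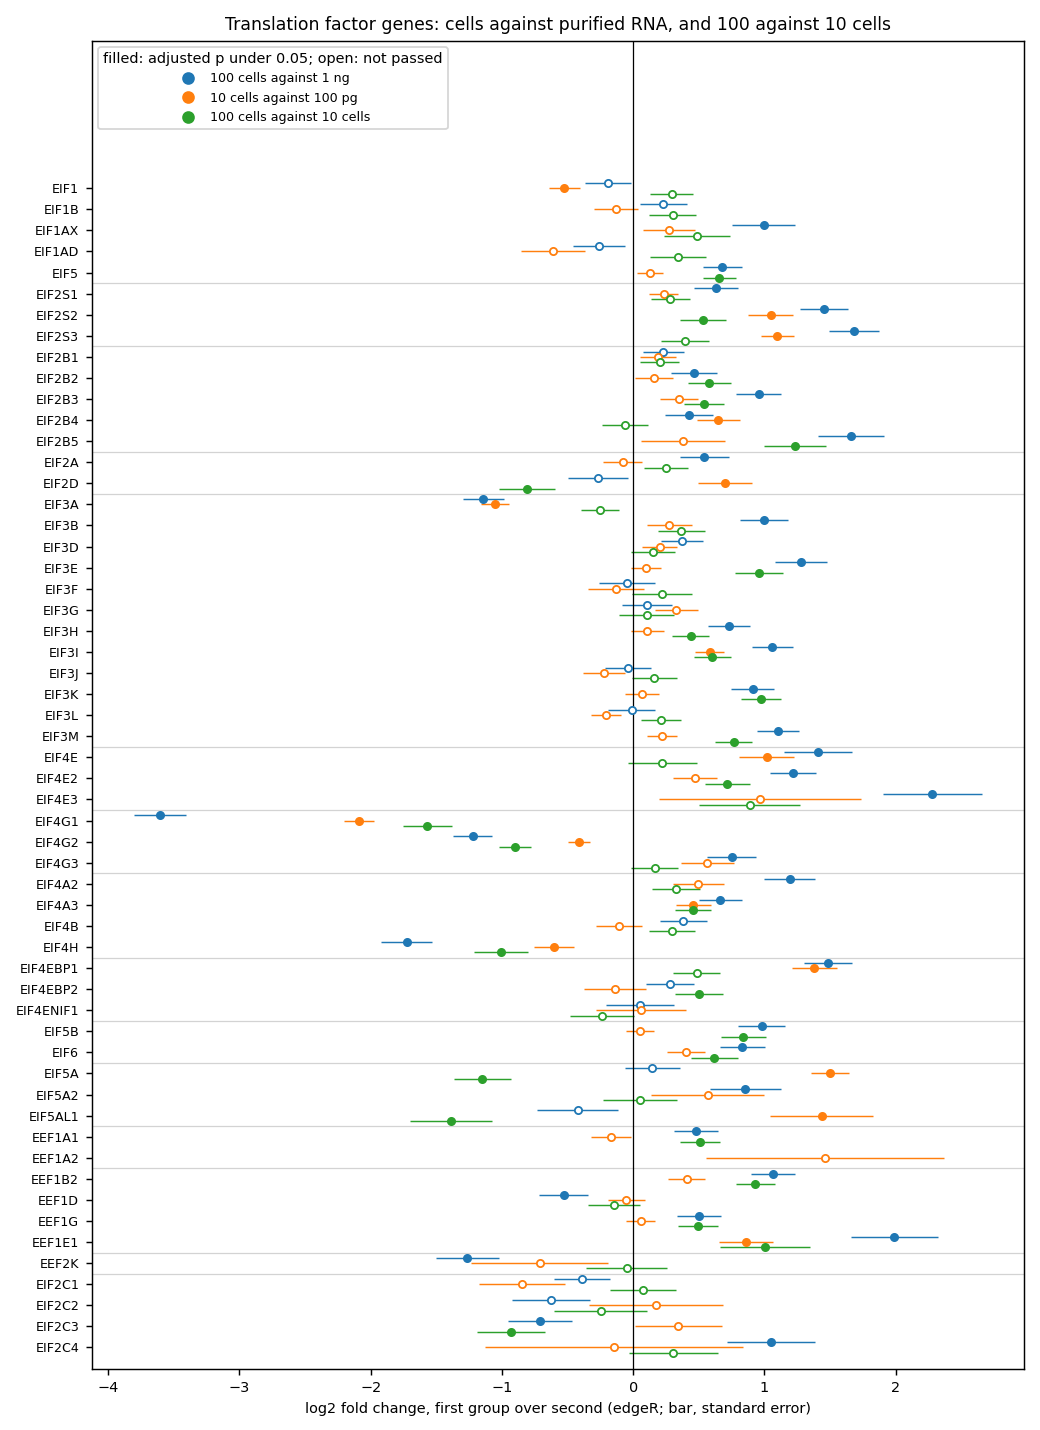
Log2 fold changes with standard errors (edgeR) for the tested translation factor genes in 3 comparisons, with symbols grouped by role. Filled points passed at an adjusted p under 0.05, open ones did not. EIF4G1 is lowest at -3.61, -2.09 and -1.57, and most other points of 100 cells against 1 ng lie to the right of 0.

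Pools of 10 cells and 100 pg of RNA put the same question at lower input. Of 57 genes tested 11 were higher in cells and 5 lower (19.3% and 8.77%), against 7.81% and 11.5% of all genes, and in 27 (47.4%) the ranges did not overlap, against 37.7% of all genes. EIF4G1, EIF4G2, EIF4H, EIF3A and EIF1 were the 5 lower genes. EIF4G1 was at 195, 179 and 209 CPM in 10 cells and 866, 813 and 768 CPM in 100 pg (-2.09 ± 0.11, adjusted p = 2.70e-07, edgeR). EIF3A was at 282, 316 and 319 CPM and 682, 603 and 592 CPM (-1.05 ± 0.11, adjusted p = 4.15e-05). Neither gene had a library of cells that reached the RNA libraries. EIF4G2 gave -0.41 ± 0.08, adjusted p = 0.00357, EIF4H -0.60 ± 0.15, adjusted p = 0.0157 and EIF1, the guardian of start codon choice, -0.52 ± 0.11, adjusted p = 0.00682, with EIF1B at -0.13 ± 0.17, adjusted p = 0.638.

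The genes higher in 10 cells were led by EIF5A, which was at 409, 394 and 454 CPM in cells and 179, 134 and 126 CPM in RNA (1.498 ± 0.15, adjusted p = 2.57e-05, edgeR). Its near-identical copy EIF5AL1 gave 1.44 ± 0.39, adjusted p = 0.0218, and the reads of these copies may not be separable. EIF2S3 was at 511, 509 and 415 CPM and 200.3, 237 and 222 CPM (1.10 ± 0.13, adjusted p = 8.20e-05). EIF2S2 (1.05 ± 0.17, adjusted p = 9.26e-04), EIF4E (1.02 ± 0.21, adjusted p = 0.00468), EIF4EBP1 (1.38 ± 0.17, adjusted p = 1.37e-04), EEF1E1 (0.86 ± 0.21, adjusted p = 0.0112), EIF2B4 (0.65 ± 0.17, adjusted p = 0.0152) and EIF2D, which can deliver initiator tRNA without eIF2 (0.70 ± 0.21, adjusted p = 0.0318), also passed. EEF1A1 did not pass at -0.17 ± 0.15, adjusted p = 0.487. EEF2 was lower in cells (-1.86 ± 0.14, adjusted p = 4.50e-06). With the length and GC trend removed the split was 7 higher and 11 lower, against 475 and 1365 of all 11671 genes. With the trend centred it was 7 and 11 or 9 and 8, against 516 and 1330 or 644 and 1041 of all genes. With all input groups in 1 fit 8 genes passed in place of 16, and without replicate 1 of 10 cells 10 passed. Over all genes 1117 and 1252 passed in these fits, in place of 2252. Among the genes lost without 1 library were EIF5AL1 without replicate 1 or 2 of 10 cells (adjusted p from 0.0989 to 0.101), EIF4H without replicate 3 of 100 pg or replicate 1 or 2 of 10 cells (adjusted p from 0.0602 to 0.0869), EIF1 without replicate 1 of 10 cells (adjusted p = 0.0531), EEF1E1 without replicate 1 or 2 of 10 cells (adjusted p from 0.0507 to 0.0557), EIF2B4 without replicate 1 or 3 of 10 cells (adjusted p from 0.059 to 0.061) and EIF2D without replicate 1 or 3 of 100 pg or replicate 1 or 2 or 3 of 10 cells (adjusted p from 0.0588 to 0.111).

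Pools of 100 cells were then set beside pools of 10 cells, which have the same source. Of 56 genes tested 20 were higher in 100 cells and 7 lower (35.7% and 12.5%), against 13.6% and 17.4% of all genes, and the ranges did not overlap in 32 (57.1%), against 43.7% of all genes. EIF4G1 was lower in 100 cells, at 47.3, 49.5 and 67.7 CPM against 195, 179 and 209 CPM (-1.57 ± 0.19, adjusted p = 6.38e-05, edgeR). EIF5A was at 134, 112 and 229 CPM in 100 cells and 409, 394 and 454 CPM in 10 cells (-1.15 ± 0.22, adjusted p = 0.0013). No library of 100 cells reached those of 10 cells for either gene. EIF5AL1 (-1.39), EIF4H (-1.005), EIF2C3 (-0.93), EIF4G2 (-0.90) and EIF2D (-0.81) were the other lower genes, the value being the log2 fold change. EEF2 was lower as well (-1.14 ± 0.20, adjusted p = 9.19e-04).

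Higher in 100 cells were EIF2B5 (1.23 ± 0.23, adjusted p = 0.00135, edgeR), EIF3K (0.97 ± 0.15, adjusted p = 3.39e-04), EIF3E (0.96 ± 0.18, adjusted p = 0.00132), EEF1B2 (0.93 ± 0.15, adjusted p = 4.52e-04), EIF5B (0.84 ± 0.17, adjusted p = 0.00221) and EIF3M (0.77 ± 0.14, adjusted p = 0.00105). Of the eIF3 subunits 5 of 12 were higher and 0 lower, and EIF3A was at -0.25 ± 0.15, adjusted p = 0.217. EEF1A1 passed at 0.51 ± 0.15, adjusted p = 0.0222, EIF4E2 at 0.72 ± 0.17, adjusted p = 0.00561 and EIF5 at 0.66 ± 0.13, adjusted p = 0.00149, while EIF4E itself did not at 0.22 ± 0.26, adjusted p = 0.557. With library totals the all-gene median moved to -0.31 and the split was 9 higher and 8 lower, against 851 and 3119 of all 11514 genes. With the length and GC trend removed it was 24 and 9, against 1622 and 1763 of all 11514 genes. With the trend centred it was 16 and 10 or 21 and 9, against 1289 and 2199 or 1451 and 1957 of all genes. The count was 13 with all input groups in 1 fit, 16 without replicate 1 of 10 cells and 15 without replicate 2. Over all genes these fits gave 1611, 2602 and 2984, in place of 3567. Calls were also lost without 1 library. EEF1A1 was lost without replicate 1 of 100 cells or replicate 1 or 2 of 10 cells (adjusted p from 0.0681 to 0.103, edgeR). EIF2C3 was lost without replicate 1 of 100 cells or replicate 2 of 10 cells (adjusted p from 0.0651 to 0.0874). EIF2D was lost without replicate 1 or 2 of 100 cells (adjusted p from 0.0735 to 0.0757).

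Pools of 100 and of 50 cells gave 0 higher and 0 lower of 57 genes with edgeR, and 0% and 0% of all genes also passed in the 2 directions. With an unadjusted p under 0.05 there were 6, and DESeq2 called 0 of the 57. The ranges did not overlap in 10 genes (17.5%), against 15.3% of all genes. With the replicate number as a block 16 genes passed, 12 higher and 4 lower in 100 cells, against 8.38% and 5.56% of all genes in the same fit. Within this block EIF5A was lower at -0.56 ± 0.11, adjusted p = 2.66e-04, EIF5AL1 at -0.86 ± 0.25, adjusted p = 0.0103, EIF2D at -0.52 ± 0.12, adjusted p = 0.00142 and EIF4G1 at -0.50 ± 0.12, adjusted p = 0.00162 (edgeR). EEF1E1 was higher at 0.59 ± 0.11, adjusted p = 1.33e-04, EEF1B2 at 0.45 ± 0.11, adjusted p = 0.00356 and EIF4EBP1 at 0.42 ± 0.11, adjusted p = 0.00568. Without the block EIF5A was at 134, 112 and 229 CPM in 100 cells and 234, 259 and 286 CPM in 50 cells.

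**Figure D3:**
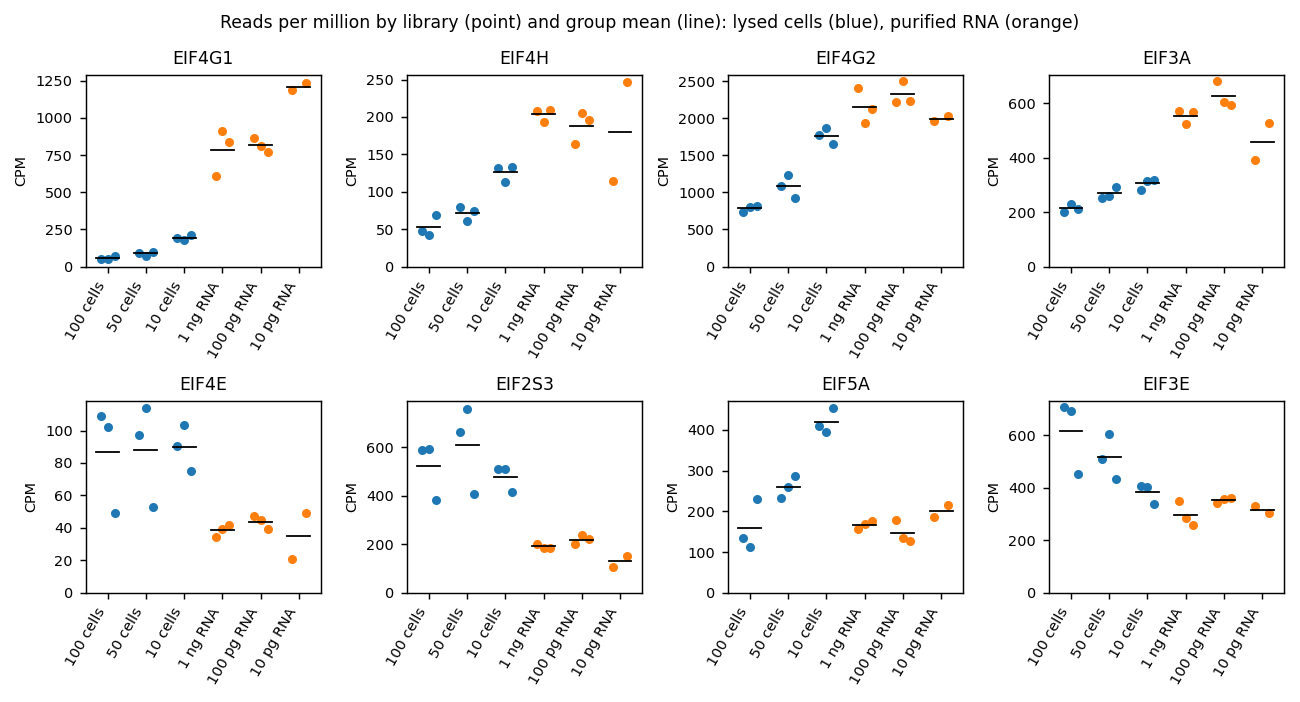
CPM of 8 translation factor genes in each library of pooled HEK293T cells (blue) and purified HEK293T RNA (orange); points are libraries and lines group means. EIF4G1 runs from 47.3 CPM in a 100-cell pool to 1233 CPM in a 10 pg library, while EIF5A is highest in the 10-cell pools, at 394 to 454 CPM.

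Whether the difference between cells and RNA was the same at both inputs was tested as an interaction, the log2 fold change of 100 cells against 1 ng minus that of 10 cells against 100 pg. Of 57 genes 11 had a positive interaction and 6 a negative one (19.3% and 10.5%), against 7.23% and 10.7% of all genes. The negative ones were EIF5AL1 (-1.86), EIF4G1 (-1.51 ± 0.22, adjusted p = 1.52e-04, edgeR), EIF5A (-1.34 ± 0.29, adjusted p = 0.003), EIF4H (-1.11), EIF2D (-0.95) and EIF4G2 (-0.80). Positive ones were led by EIF2B5 (1.29 ± 0.39, adjusted p = 0.0265), EIF3E (1.19 ± 0.23, adjusted p = 0.0016), EIF5B (0.93 ± 0.20, adjusted p = 0.00357), EIF3M (0.89 ± 0.19, adjusted p = 0.00246) and EIF3K (0.85 ± 0.20, adjusted p = 0.00644). The EIF4G1 gap between cells and RNA was thus larger at the higher input. With all input groups in 1 fit 7 genes passed, and 10 passed without replicate 2 or 3 of 1 ng or without replicate 2 of 10 cells. Of 12 libraries left out in turn, 10 ended the call of EIF2D (adjusted p from 0.0569 to 0.171), 7 that of EEF1A1, 6 each those of EEF1B2 and EIF4E2, and 2 each those of EIF2B5 (adjusted p from 0.0695 to 0.0828) and EIF5. The balance depended on the scaling. With library totals it was 4 positive and 8 negative, against 440 and 1987 of all 12192 genes, and the all-gene median moved to -0.31. It was 15 and 4 with the length and GC trend removed, and 5 and 8 or 9 and 8 with the trend centred. No all-gene counts are set beside these corrected splits. The replicate block, which keeps only libraries with a shared number, gave 1 and 4.

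Between 1 ng and 100 pg of purified RNA 0 of 56 genes were higher and 0 lower with edgeR, against 0% and 0.0262% of all genes. With an unadjusted p under 0.05 there were 3, and DESeq2 called 0 of the 56. Ranges did not overlap in 8 genes (14.3%), against 15% of all genes. EIF4G1 stood at 611, 910.1 and 836 CPM at 1 ng and 866, 813 and 768 CPM at 100 pg, and EIF4G2 at 2408, 1941 and 2119.8 CPM and 2224, 2500.0 and 2237 CPM. In both genes the ranges overlapped.

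Between 1 ng and 10 pg 3 of 55 genes were higher at 1 ng and 2 lower (5.45% and 3.64%), against 16.9% and 1.54% of all genes, and the ranges did not overlap in 24 (43.6%), against 46.5% of all genes. EIF5A2 had 86 reads over the 3 libraries of 1 ng and 0 over the 2 of 10 pg, and was thus at least 12.2-fold higher at 1 ng, taking 3 reads over the 10 pg group as the floor (adjusted p = 0.0134, edgeR). EIF2C4 had 58 reads and 1 read, a ratio of 24.6 with a 95% counting interval of 4.24 to 987. EIF4EBP2 was at 95.5, 78.4 and 87.4 CPM at 1 ng and 25.1 and 34.1 CPM at 10 pg (1.61 ± 0.36, adjusted p = 0.0415). EIF2B4 (-1.20 ± 0.25, adjusted p = 0.032) and EIF1AX (-0.93 ± 0.21, adjusted p = 0.0449) were higher at 10 pg. EIF4G2 did not pass, with 1956 and 2029 CPM at 10 pg, while EIF4G3 was at 227 and 4.75 CPM and EIF2A at 0.533 and 133 CPM in the 2 libraries of 10 pg, far apart from each other. The count rests on few libraries: it was 0 without any 1 of the 3 libraries of 1 ng, as it was over all genes. Without a library of 10 pg 1 library was left there, and no count is given. The median log2 fold change was then 0.29 without replicate 1 and 0.26 without replicate 2, against 0.73 and 0.57 over all genes. With the length and GC trend removed 1 was higher and 32 lower, where the all-gene median log2 fold change moved to -1.28. Of all 11087 genes in that fit 1676 were higher and 3486 lower. With the trend centred the split was 8 and 1 or 5 and 3, against 2262 and 248 or 2074 and 408 of all genes.

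The other genes of the pathway, 31 in a list that holds the poly(A)-binding proteins, initiation helpers, eIF2 alpha kinases and phosphatase, termination, mitochondrial and hypusine factors with EEF2, were all tested. In 100 cells against 1 ng 9 of the 31 were higher and 11 lower, shares close to the 29.7% and 33.1% of all genes, with a median log2 fold change of -0.25. In 10 cells against 100 pg 2 were higher and 8 lower (6.45% and 25.8%, against 7.81% and 11.5% of all genes), with a median of -0.15. In 100 against 10 cells 7 were higher and 5 lower (22.6% and 16.1%, against 13.6% and 17.4%), with a median of -0.12. Pools of 100 against 50 cells and 1 ng against 100 pg gave 0 in either direction with edgeR, with 1 and 2 at an unadjusted p under 0.05 and other tools not counted for this list. PAIP2, an inhibitor of the poly(A)-binding protein, was higher in 100 cells than in 1 ng (1.71 ± 0.16, adjusted p = 5.61e-08, edgeR), as was GSPT1, the GTPase partner of the release factor (1.03 ± 0.17, adjusted p = 5.19e-05). EEF2 and PPP1R15A, the stress-induced subunit of the eIF2 alpha phosphatase, were lower, the latter at -3.15 ± 0.25, adjusted p = 6.56e-09. In 10 cells against 100 pg PAIP2 (0.86 ± 0.13, adjusted p = 5.17e-04) and DENR, which helps recycle ribosomes (0.81 ± 0.15, adjusted p = 0.00276), were higher, and ETF1, the release factor itself, was lower (-0.60 ± 0.12, adjusted p = 0.00295). In 100 against 10 cells MTIF3, the mitochondrial initiation factor, was higher (0.93 ± 0.18, adjusted p = 0.00187), as was MCTS1, the partner of DENR (0.83 ± 0.19, adjusted p = 0.00517), and PPP1R15A was lower (-2.14 ± 0.32, adjusted p = 3.02e-04). At 10 pg PDCD4, which binds and inhibits eIF4A, was at 1431 and 2356 CPM against 155, 154 and 144 CPM at 1 ng (-3.60 ± 0.24, adjusted p = 0.0134), and EIF2AK2, the kinase of eIF2 alpha that senses double-stranded RNA, was higher at 1 ng (2.08 ± 0.39, adjusted p = 0.0233). Both calls were lost without any 1 of the 3 libraries of 1 ng (adjusted p from 0.0578 to 0.069 for PDCD4 and from 0.0942 to 0.176 for EIF2AK2). Of the interactions 6 were positive and 4 negative (19.4% and 12.9%, against 7.23% and 10.7%), with EEF2 at -1.31 ± 0.23, adjusted p = 6.18e-04. With the length and GC trend removed PAIP2 did not pass in 100 cells against 1 ng (0.19, adjusted p = 0.11) or in 10 cells against 100 pg (0.15, adjusted p = 0.478). The same held in 100 against 10 cells for MTIF3 (adjusted p = 0.99978), MCTS1 (adjusted p = 0.804) and EEF2 (-0.29, adjusted p = 0.0909), and for the interaction of EEF2 (-0.21, adjusted p = 0.439).

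Single cells of the 2 lines were compared on reads summed over the cells of a line, with no test because each line counts as 1 sample, and a gene is described as past 2-fold where the log2 ratio of CPM, with 1 CPM added, exceeds 1 and the higher group reaches 10 CPM. EIF1AY was left out of the single-cell counts, because it is Y-linked, so they cover 65 genes. In DG-75 cells the helicase gene EIF4A2, EIF1 and EEF1A1 were higher than in HEK293T cells, and EIF3J, EIF2B3, EIF3I and EIF5B were lower. Of 54 genes at 10 CPM or more 8 were higher and 10 lower by over 2-fold (14.8% and 18.5%), against 25% and 28.7% of all genes. The median absolute log2 ratio was 0.72, against 1.11 over all genes.

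EIF1 was at 1464, 2398 and 2906 CPM (lowest, median and highest) in the 7 DG-75 cells and at 556, 646 and 958 CPM in the 7 HEK293T cells. Every DG-75 cell lay above every HEK293T cell, and the summed levels were 2402 (95% Poisson interval 2386 to 2418) and 724 (95% Poisson interval 718 to 730.2) CPM (log2 ratio 1.73). These intervals cover counting error only. EIF4A2 was at 228, 534 and 1277 CPM in DG-75 cells and 52.5, 113 and 344 CPM in HEK293T cells, which overlapped in 1 HEK293T cell (2.35). EIF2A, an alternative carrier of initiator tRNA, gave a log2 ratio of 1.21, EEF1A1 1.21, EIF4B 1.09 and the Argonaute gene EIF2C3 1.07, each with overlapping cells.

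On the other side EIF5B was at 98.5, 215 and 288 CPM in DG-75 cells and 364, 462 and 593 CPM in HEK293T cells, without overlap (log2 ratio -1.20). EIF3J, the loosely bound eIF3 subunit, was at 8.20, 24.4 and 77.1 CPM and 67.0, 229.8 and 322 CPM (-2.82). EIF2B3 (-1.86), EIF3I (-1.54), EIF1AX (-1.32) and EIF3B (-1.15) were lower too, with overlapping cells. Of the 10 genes with the pyrimidine motif at their start shown above 4 were higher past 2-fold in DG-75 and 0 lower, with a median log2 ratio of 0.35, and of 34 matched genes without it 4 were higher and 9 lower, with a median of -0.47. EEF2, which holds the motif, was at 1448, 3384 and 4617 CPM in DG-75 cells and 655, 1156 and 1933 CPM in HEK293T cells (1.39). EIF2S3, which also holds it, gave -0.39.

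**Figure D4:**
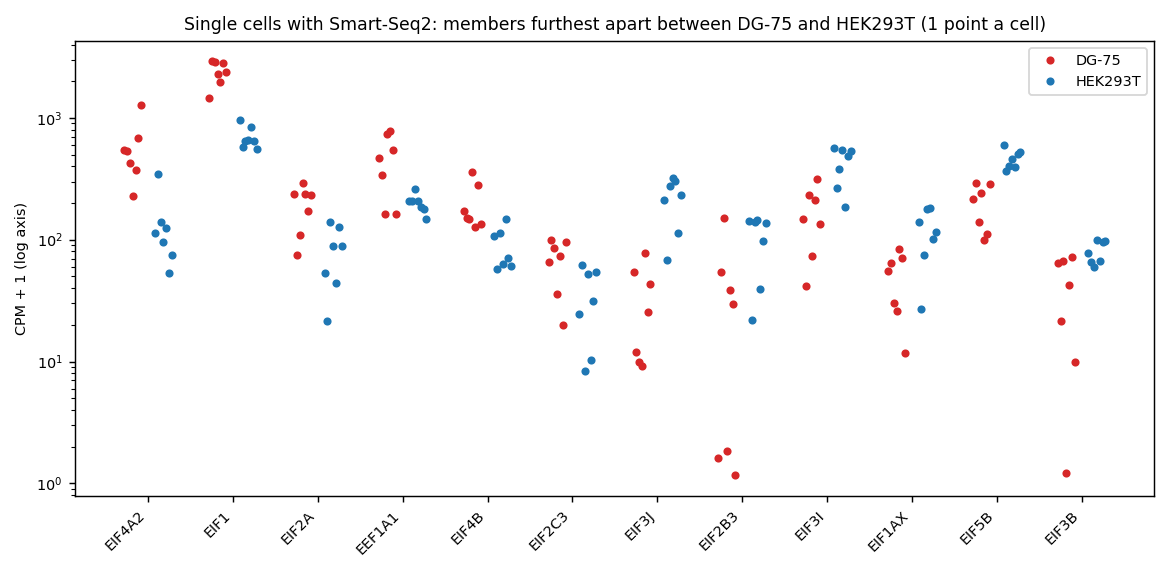
CPM + 1 (log axis) in each of 7 DG-75 cells (red) and 7 HEK293T cells (blue) for the 12 translation factor genes named for the size of their ratio, 6 in each direction. EIF1 and EIF5B are the genes whose cells do not overlap between the lines; EIF2B3 and EIF3B fall to near 1 in some DG-75 cells.

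SMART-Seq and variant 3 were each set beside Smart-Seq2 in single HEK293T cells, and they share those control cells, so their values are given side by side without a count of shared genes. With SMART-Seq 16 of 56 genes were higher and 12 lower past 2-fold (28.6% and 21.4%), against 19.2% and 37.3% of all genes. With variant 3 12 of 54 were higher and 15 lower (22.2% and 27.8%), against 19.9% and 43.1% of all genes. With TMM scaling on the summed reads, which moves the all-gene median from -0.39 to -0.05 and from -0.54 to 0.02, the splits were 22 and 10 for SMART-Seq and 25 and 14 for variant 3. All genes past 2-fold were not counted with this scaling. The all-gene shares above belong to the unscaled ratios and are no background for these splits.

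EIF4H was at 90.1, 164 and 356 CPM (lowest, median and highest) in Smart-Seq2 cells, at 9.87, 9.83, 7.79 and 10.1 CPM in the 4 SMART-Seq cells and at 0.262, 2.53 and 9.74 CPM in variant 3 cells. No cell of SMART-Seq or variant 3 reached the Smart-Seq2 cells, and the log2 ratios to Smart-Seq2 were -4.01 and -5.15. EIF4G1 was at 261, 506 and 752 CPM with Smart-Seq2, 102, 63.8, 104 and 30.3 CPM with SMART-Seq and 1.76, 6.68 and 24.5 CPM with variant 3, again without overlap (-2.64 and -5.49). EIF3G, an RNA-binding eIF3 subunit, gave -2.16 and -5.90, and EIF4EBP1 -2.20 and -5.57. EIF5A (-0.65 and -4.43) and EEF1D (-0.28 and -3.23) were past 2-fold with variant 3 and not with SMART-Seq, and the difference between the protocols was not tested. EEF2 was at 333, 311, 878 and 412 CPM with SMART-Seq and 15.2, 25.3 and 40.5 CPM with variant 3, beside 655, 1156 and 1933 CPM with Smart-Seq2.

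EIF2S3 was on the other side, at 37.8, 206 and 389.8 CPM with Smart-Seq2, 2008, 1688, 3734 and 2685 CPM with SMART-Seq and 513, 879 and 1312 CPM with variant 3 (log2 ratios 3.43 and 1.97). All cells of the other protocols lay above all Smart-Seq2 cells. EIF2A gave 2.56 and 2.10, EIF2S1, the regulated alpha subunit of eIF2, 1.79 and 1.64, and EIF4E 1.59 and 1.95. EIF1B (1.59) and EIF3I (1.52) were among the 6 largest with SMART-Seq, and EIF4G3 (1.71) and EIF2B3 (1.68) with variant 3. The third eIF4G gene thus lay opposite to EIF4G1, while EIF4G2 was at -0.40 and 0.95.

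GC content moved with these ratios. Across genes the rank correlation of the log2 ratio with the GC content of the annotated transcript was -0.40 over 56 translation factor genes and -0.37 over all genes for SMART-Seq, and -0.49 over 54 and -0.59 over all genes for variant 3. EIF4EBP1 has 65.5% GC, EIF3G 60.3% and EIF4G1 56.9%, whereas EIF2S3 has 42.7% and EIF4E 43.2%. EIF4H has 52.3% GC. Other genes went less with GC content: EEF1D at 63.2% and EIF5A at 56.4% were not past 2-fold with SMART-Seq. With SMART-Seq EIF2B1, at 45.5% GC, had a log2 ratio of -1.69. The part of GC content in the ratios was not tested.

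**Figure D5:**
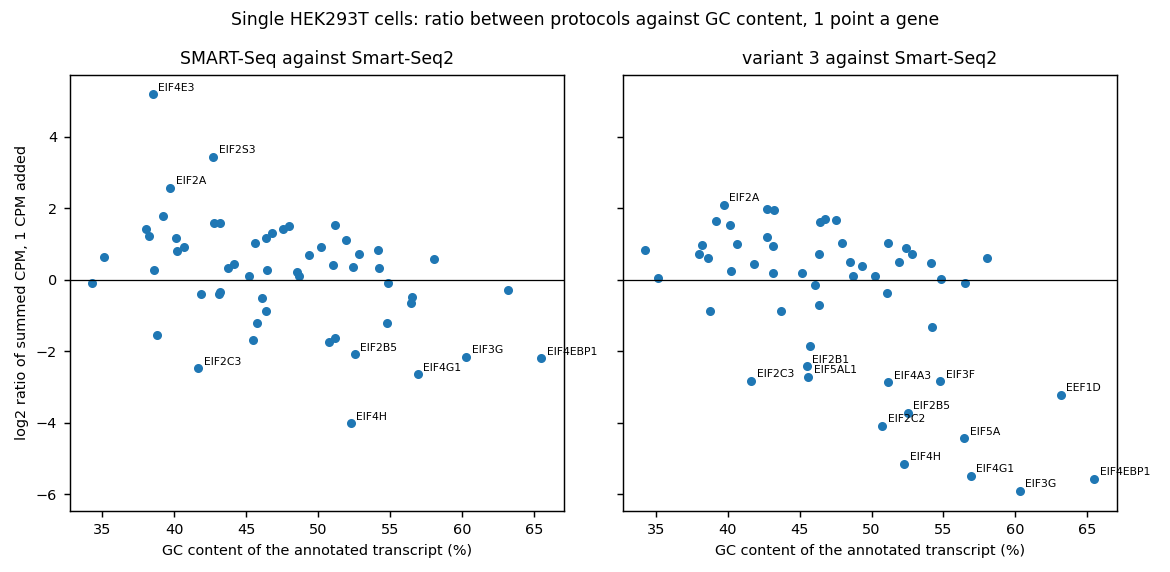
Log2 ratio of summed CPM (1 CPM added) to Smart-Seq2 in single HEK293T cells against the GC content (%) of the annotated transcript, for SMART-Seq (left) and variant 3 (right); each point is a gene at 10 CPM or more. The genes above 55% GC include EIF4G1, EIF3G and EIF4EBP1 low in both panels, and EIF2S3 at 42.7% GC lies high in both. EEF1D and EIF5A, also above 55% GC, are past 2-fold in the right panel only.

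With variant 1 0 of 54 genes were past 2-fold in either direction (4.93% higher and 6.88% lower over all genes), with variant 2 1 was higher and 0 lower (6.24% and 9.28%), and with variant 4 2 were higher and 3 lower (8.34% and 8.33%). The gene past 2-fold with variant 2 was EIF4ENIF1, the shuttle of eIF4E, at 1.18. With variant 4 EIF2S3 was at 474, 492 and 570.3 CPM against 37.8, 206 and 389.8 CPM with Smart-Seq2 (1.08), and EEF2K gave 1.16. The 3 lower genes were not among those named for their size. The lowest log2 ratio in matched genes without the pyrimidine motif was -4.225. EIF2A was the highest named gene with variant 1 (0.94) and EIF3J the lowest (-0.82). EIF4G1 was at 0.12, 0.29 and 0.13 with variants 1, 2 and 4.

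Between cells of 1 group the median spread of the translation factor genes was smaller than that of all genes of 50 CPM or more. The median coefficient of variation over 44 of them in HEK293T Smart-Seq2 cells was 38.1%, against 49.0% over 4581 genes, and 29 of the 44 lay under the latter. In DG-75 cells it was 47.0% over 39 genes, against 70.8% over 4709 genes. In the other 5 groups the medians ran from 28.4% to 43.9% for translation factor genes and from 41.5% to 59.0% for all genes. EEF1A1 and EEF1B2 had coefficients of 17.5% and 15.2% in HEK293T Smart-Seq2 cells. These genes were not matched with the others on level, and the part of level was not tested.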

How the data were processed

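Reads per gene were deposited by the authors as counts, beside RPKM values that the authors computed, for 63 human libraries of Smart-Seq2 and SMART-Seq. STAR and the build hg19 (GRCh37) are named, per the submitters' processing notes, and per the file headers genes are those of RefSeq. Which tool counted the reads, and how it treated strand and several matches, is not given in the sources used here. RPKM were used only for levels between genes, and counts for everything else.

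Counts of rows with 1 symbol were summed (24249 rows, 23571 symbols) and scaled to a library's gene reads. RNA and pool groups were compared with edgeR 4.0.16 in R 4.3.3 (TMM, filterByExpr, quasi-likelihood F test, groups compared only), with Benjamini-Hochberg adjustment over all genes tested and a threshold of 0.05. DESeq2 1.42.0 was an alternative. The procedure was tested on simulated data. Single-cell groups were summed and given as CPM with exact Poisson intervals of 95%, with no test. Reads from PCR without molecular identifiers are not independent molecules, and the intervals and floors hold counting error alone.

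Same-numbered pools deviated together between 100 and 10 cells (r = 0.125, 0.371 and 0.527 for numbers 1 to 3) and between 100 and 50 cells (0.273, 0.689 and 0.798). The main tests did not pair the pools, and the fits that pair them by number, as a block, are alternatives. In 100 against 10 cells the block gave 27 higher and 7 lower, against 2149 and 2571 of all 11514 genes. The pairing comes from these correlations and the labels' numbers, and it is not a clean one: pool 1 of 100 cells correlated more with number 2 of 10 cells (0.340) and of 50 cells (0.614) than with its own number, so that the correlations set replicate 3 apart from replicates 1 and 2.

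Full statistics were given to the 6 genes with the largest change in each direction among those that passed without overlap at 20 CPM or more, to the leading gene of each role, to paralogs of a named gene, and, of the pathway list, to the 2 smallest adjusted p in each direction and EEF2. Other genes that passed are given by value only as part of their role. In single cells the 6 largest ratios in each direction at 50 CPM or more were named. The genes, lists and roles were chosen with earlier results of these data known. Both centred forms of the length and GC correction were chosen after seeing the data. The Y-linked EIF1AY is counted among the 66 genes and in their summed share, was left out of the single-cell counts, and is given no level. The 13 mouse libraries were not used.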

Additional observations from a re-analysis of the deposited data

Results flagged for a closer look

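Of 68 groups of values checked, 6 held a library far from the others, and chance alone flags about 5% of such groups. The summed share of translation factor reads was 0.919% in replicate 5 of variant 3, against 1.51% to 1.79% in its other cells, and 0.715% in replicate 2 of the HEK293T Smart-Seq2 cells, against 1.16% to 1.32%. EIF4A2 was at 1277 CPM in replicate 7 of DG-75, against 228 to 680 CPM in the other cells, and at 344 CPM in replicate 2 of the HEK293T Smart-Seq2 cells, against 52.5 to 140 CPM. EIF2B3 was at 151 CPM in replicate 3 of DG-75, against 0.169 to 53.3 CPM. EIF4H was at 7.79 CPM in replicate 3 of SMART-Seq, against 9.83 to 10.1 CPM.

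For 17 genes the difference between cells and RNA was not the same at the 2 inputs, by the interaction in edgeR. Negative log2 interactions were found for EIF5AL1 (-1.86), EIF4G1 (-1.51), EIF5A (-1.34), EIF4H (-1.11), EIF2D (-0.95) and EIF4G2 (-0.80). Positive ones were found for EIF5 (0.56), EIF3H (0.62), EEF1A1 (0.65), EEF1B2 (0.66), EIF3B (0.73), EIF4E2 (0.76), EIF3K (0.85), EIF3M (0.89), EIF5B (0.93), EIF3E (1.19) and EIF2B5 (1.29). Leaving out single libraries ended the call of EIF2D for 10 of the 12 libraries, of EEF1A1 for 7, of EEF1B2 and EIF4E2 for 6 each and of EIF2B5 and EIF5 for 2 each. EIF4G1 and EIF4G2 lost the call only with the replicate block and the length and GC correction together, among the alternatives run.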

How the results depend on the processing

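Of 71 calls of named genes, 27 held in every alternative and 44 were lost in at least 1, most often with the replicate block and the length and GC correction together (30) and with all input groups in 1 fit (27). EEF1B2 in 100 cells against 1 ng changed sign and passed, at -0.42 with the length and GC trend centred on its median and at -0.27 with the median ratio kept; EIF3E (-0.33) and EIF3IP1 (-0.60) did so with the first of these. Both centrings were chosen after seeing the data. In all, 7 of the 39 calls changed sign under each form of the correction, most without passing. Of 19 calls of named pathway genes, 4 held in every alternative and 15 were lost in at least 1. The cause was not tested.

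The count of 10 cells against 100 pg fell from 16 to 8 with all input groups in 1 fit and to 8 on shared numbers with no block. Over all genes it fell from 2252 to 1117 and to 1285. The count of 100 against 10 cells fell from 27 to 17 with library totals and to 13 with all input groups in 1 fit, and was 34 with the block. Over all genes it rose from 3567 to 3970 with library totals, fell to 1611 with all input groups and was 4720 with the block. The count of 100 against 50 cells rose from 0 to 16 with the replicate block, and over all genes from 0 to 1582. With the block and the length and GC correction it was 14, and 1243 over all genes. That of 1 ng against 10 pg was 5 and became 9 with DESeq2, 3 with no filter, 18 with all input groups, 33, 9 and 8 with the uncentred, centred and median-kept corrections, and 0 with the replicate block, on shared numbers with no block or with block and correction. Over all genes this comparison had 2044 calls, and 5162, 2510 and 2482 with those corrections. It had 3306 with DESeq2, 2279 with no filter and 4298 with all input groups. It had 0 with the block and 0 on the same libraries without it. The interaction fell from 17 to 7 with all input groups. Fits by shared number leave out the libraries without one. On the libraries kept, the interaction gave 2 without the block, 5 with the block and 2 with block and correction. No all-gene counts are set beside these. Same-numbered libraries of cells and RNA, and of RNA amounts, share only a number (r from -0.115 to 0.0473). Set against the main fits, the block changed no other count by over 1.5 times. In 10 cells against 100 pg it gave 16, against 8 on the same libraries without it. Over all 11715 genes these fits gave 1842 and 1285. Replicates 1 and 2 of 100 cells were also summed to 1 library. In 100 cells against 1 ng 38 genes then passed in place of 39, and 6685 of all 11822 genes. In 100 against 10 cells it was 21 in place of 27, and 2510 of all 11927 genes. In 100 against 50 cells it stayed at 0, and 15 of the 17 interactions passed.

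Leaving out 1 library gave 32 to 45 calls for 100 cells against 1 ng, 10 to 16 for 10 cells against 100 pg, 15 to 33 for 100 against 10 cells, 0 for 100 against 50 cells, 0 for 1 ng against 100 pg and 10 to 25 for the interaction. Over all genes it gave, in the same order, 6335 to 7988, 1252 to 2264, 2174 to 4608, 0 to 43 and 1 to 2. The all-gene range of the interaction is not given. For 1 ng against 10 pg it gave 0 without a library of 1 ng. No count is given without a library of 10 pg, where 1 library was left. In single cells it gave 0 to 2 genes past 2-fold for variant 1, 1 to 5 for variant 2 and 3 to 5 for variant 4. Variant 1 had 1 with no minimum level, variant 2 had 2 with the mean of the cells, 2 and 0 with pseudocounts of 0.1 and 5 CPM and 3 with no minimum, and variant 4 had 2 with a pseudocount of 5 CPM. With 1 sample per single-cell group, no difference between protocols or lines could be tested, and genes under 10 CPM were not read.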

Other observations

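EIF3I and its pseudogene EIF3IP1 gave nearly the same ratio with SMART-Seq (1.52 and 1.51) and with variant 3 (1.04 and 1.03), and further apart in DG-75 (-1.54 and -1.08). In 100 cells against 1 ng the genes with the pyrimidine motif at their start had a median log2 fold change of 0.51 (6 of 10 higher, 0 lower) and the matched genes without it 0.57 (21 of 36 higher, 5 lower). With SMART-Seq the medians were 0.88 and 0.32, and with variant 3 0.80 and 0.08. None of these splits was tested.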
